A study of Homo sapiens with 6 samples.

Results

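Levels of 10 ATP-binding cassette (ABC) transporter genes other than ABCB1, whose products move drugs, conjugates or metabolites, were examined in docetaxel-resistant prostate cancer cells with and without silencing of MUC1. The genes were chosen by name and are ABCC1, ABCC2, ABCC3, ABCC4, ABCC5, ABCC10, ABCG2, ABCB6, ABCB10 and ABCA3, which are 10 of the 28008 genes in the count table. With DOX, 4 of the 10 fell (ABCB6 to 55.5%, ABCG2 to 61.7%, ABCC1 to 78.1% and ABCC4 to 85.4% of the DOX-negative mean) and the other 6 did not pass the test. Of all 14292 genes tested, 26.7% passed, and 13.7% passed as lower. In bulk RNA, fewer cells that express a gene and less RNA per cell cannot be told apart.

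The cells were DU-145-DR/tet-MUC1shRNA, made from DU-145, an established human prostate cancer line, by continuous exposure to docetaxel (DTX), a taxane that stabilises microtubules. They carry a short hairpin RNA against MUC1 in the pLKO-tet-puro vector, which is switched on by doxycycline (DOX, the antibiotic and not the anthracycline doxorubicin), and transduced cells were selected with puromycin. The 3 DOX-negative cultures received 0.1% DMSO as vehicle and the 3 DOX-positive cultures received 500 ng/ml DOX, and RNA was isolated from triplicate cultures of this 1 resistant line. Libraries with DOX and a control hairpin were not analysed here, so silencing of MUC1 and exposure to DOX cannot be told apart. By its treatment label, a DOX-positive sample carries the hairpin and a DOX-negative sample is DTX resistant; that both are 1 hairpin-carrying resistant line rests on the titles and the study's description.

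ABC transporters bind and hydrolyse ATP at a pair of nucleotide-binding folds and use that energy to carry substrates across a membrane. In tumour cells they are best known as efflux pumps: ABCB1 (P-glycoprotein) exports taxanes, and the ABCC proteins (multidrug resistance proteins) export drugs mainly as organic anions and conjugates with glutathione, glucuronate or sulfate. Some members work inside the cell, in mitochondria, endosomes or lamellar bodies, so their transcript levels bear on metabolism as well as on drug handling.

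Library totals ranged from 15092691 to 23243713 counts, and a floor of 3 counts equalled 0.131 to 0.202 CPM (counts scaled to the TMM-adjusted library size). MUC1, the targeted gene, had 387, 484 and 396 counts without DOX and 75, 74 and 66 with DOX (log2 fold change -2.52, SE 0.146, edgeR adjusted p = 4.47e-11). The line's identity was checked against markers. KLK3 and FOLH1, which mark luminal prostate cells, and CHGA and INSM1, which mark neuroendocrine cells, were at 0 counts in every library. The 5 epithelial markers KRT8, KRT18, KRT19, EPCAM and CDH1 were all expressed and all 5 rose with DOX (edgeR adjusted p from 1.68e-11 to 3.01e-08), where 13.0% of all genes tested passed as higher. They had a summed level between 757 and 837 CPM in the DOX-negative libraries and between 1444 and 1516 CPM in the DOX-positive libraries. The part of this shift in the changes of the 10 transporters was not tested.

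The start regions of the genes that fell and had a listed window (3 of the 4) are shown, because factors that regulate transporter and detoxification genes recognise short motifs near gene starts. The windows run from 250 bases before to 50 bases after an annotated transcription start (RefSeq, GRCh38.p14), are written 5′ to 3′ on the gene's strand, and carry motif matches in capitals. The motifs, searched on both strands, were CACGTG (the E-box bound by MYC with MAX), TGACNNNGC (the core of the antioxidant response element bound by NFE2L2, also called NRF2) and GCGTG (the core of the element bound by the aryl hydrocarbon receptor, AHR).
ABCB6, chr2:219218909-219219208, minus strand: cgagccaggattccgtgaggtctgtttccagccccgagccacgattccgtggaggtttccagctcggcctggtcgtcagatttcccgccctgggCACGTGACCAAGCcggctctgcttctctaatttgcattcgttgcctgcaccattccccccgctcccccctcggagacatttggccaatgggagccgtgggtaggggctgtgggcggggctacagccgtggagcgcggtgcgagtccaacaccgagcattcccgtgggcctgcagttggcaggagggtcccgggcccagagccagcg
ABCG2, chr4:88158860-88159159, minus strand: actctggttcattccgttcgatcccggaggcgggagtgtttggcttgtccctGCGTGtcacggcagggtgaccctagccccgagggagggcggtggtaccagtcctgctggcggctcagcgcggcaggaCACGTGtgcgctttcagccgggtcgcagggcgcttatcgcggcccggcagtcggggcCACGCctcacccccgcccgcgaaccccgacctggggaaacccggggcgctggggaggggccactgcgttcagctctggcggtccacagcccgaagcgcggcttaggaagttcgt
ABCC4, chr13:95301402-95301701, minus strand: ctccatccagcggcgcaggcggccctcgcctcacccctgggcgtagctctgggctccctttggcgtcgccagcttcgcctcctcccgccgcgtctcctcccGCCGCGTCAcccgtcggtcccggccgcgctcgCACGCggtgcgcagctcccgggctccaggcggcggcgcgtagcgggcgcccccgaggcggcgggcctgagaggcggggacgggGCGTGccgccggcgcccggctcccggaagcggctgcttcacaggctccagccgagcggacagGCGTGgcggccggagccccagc
In the ABCB6 window, a CACGTG and a TGACNNNGC match overlapped in 1 run of capitals. The ABCG2 window, 1 of 5 listed for that gene and chosen for its matches, held 1 CACGTG and 2 GCGTG matches, and 1 of the others held no match to any motif. The ABCC4 window held 1 TGACNNNGC and 3 GCGTG matches. Of 35116 windows of this length, 7.26% held CACGTG, 13.3% held TGACNNNGC and 36.5% held GCGTG. These matches describe letters in the windows and not binding. Windows were found for 8 of the 10 genes, all but ABCC1 and ABCC3. Among genes that did not fall, 1 of the 2 ABCC10 windows held all 3 motifs, the windows of ABCB10, ABCC5 and ABCA3 held GCGTG, that of ABCA3 also held 1 TGACNNNGC match, and the ABCC2 window held none.

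The 10 genes were expressed at unequal levels in the resistant cells. Levels between genes were compared as TPM, transcript abundances scaled to transcript length, and as shares of the summed TPM of the 10 genes, because RN7SL1, RN7SL2, RN7SL3, RN7SK and RPPH1, 5 noncoding RNAs, took up 34.4% to 64.4% of all TPM, depending on the library, and so set the scale of every other value. ABCC3 (28.1 ± 11.4 TPM, SD, n = 3) and ABCC4 (27.8 ± 7.81 TPM) were the most abundant in DOX-negative cells and held 23.4 ± 1.92% and 23.9 ± 1.30% of the sum. ABCC5 (13.6 ± 5.27 TPM) and ABCB10 (12.8 ± 3.25 TPM) followed, then ABCC1 (9.82 ± 3.25), ABCA3 (8.12 ± 2.93), ABCC10 (5.56 ± 1.64), ABCB6 (4.68 ± 1.61), ABCC2 (4.55 ± 1.30) and ABCG2 (2.69 ± 0.825 TPM).
The TPM ranges over the 6 libraries overlapped for all 9 pairs of neighbours in this order. Within the DOX-negative libraries, the shares of 6 of the 9 pairs did not overlap, and the exceptions were ABCC3 with ABCC4, ABCC5 with ABCB10, and ABCB6 with ABCC2. The lengths behind the TPM values are not given in the sources used here, and ABCC1's place depends on them. From the counts per base of the longest principal transcript in GENCODE 29, ABCC1 held 15.4 ± 0.0206% of the sum and ranked 3 of 10, against 8.35 ± 0.0121% and rank 5 by the deposited TPM.

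**Figure D1:**
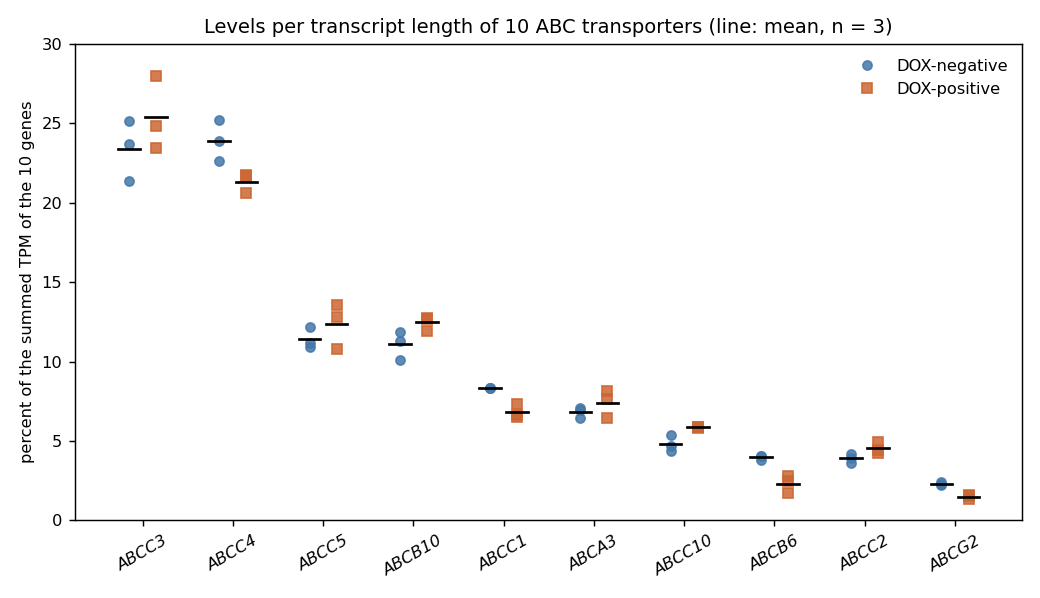
Share of the summed TPM of the 10 transporter genes held by each gene (y axis, percent), for 3 DOX-negative and 3 DOX-positive libraries (1 point per library, lines mark means). ABCC3 and ABCC4 stand above the others in all 6 libraries, and the DOX-positive points of ABCC1, ABCC4, ABCB6 and ABCG2 lie below the DOX-negative points.

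Gene positions below are those of RefSeq on GRCh38.p14. ABCC1, ABCC2 and ABCC3 export glutathione, glucuronate and sulfate conjugates. ABCC1 (MRP1, chr16:15949143-16143053) sits in the plasma membrane and also exports unmodified hydrophobic drugs together with glutathione. It had 98.07, 97.96 and 91.98 CPM in the DOX-negative libraries and 72.03, 73.66 and 79.15 CPM in the DOX-positive libraries. Every DOX-positive library lay below every DOX-negative one. The log2 fold change was -0.36 (SE 0.0705, 95% interval -0.51 to -0.21, edgeR adjusted p = 0.000594).
ABCC2 (MRP2, chr10:99782640-99852594), the exporter of the apical membrane, had 19.58, 17.07 and 17.45 CPM without DOX and 19.73, 18.9 and 21.5 CPM with DOX. The groups overlapped, and the log2 fold change was 0.15 (95% interval -0.070 to 0.37, edgeR adjusted p = 0.320).
ABCC3 (MRP3, chr17:50634881-50692253), the basolateral exporter of glucuronides and bile salts, had 108.1, 114.9 and 91.28 CPM without DOX and 106.2, 121 and 98.63 CPM with DOX, and the groups overlapped. Its log2 fold change was 0.053 (95% interval -0.12 to 0.23, edgeR adjusted p = 0.696). Of these 3 conjugate exporters, ABCC1 passed the test, and whether its change differed from those of ABCC2 and ABCC3 was not tested.

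ABCC4 and ABCC5 export cyclic nucleotides and nucleotide analogues, and ABCC4 (MRP4, chr13:95019835-95301451) also exports prostaglandins. ABCC4 had 130.7, 123.8 and 129.2 CPM in the DOX-negative libraries and 105.8, 112.3 and 109.6 CPM in the DOX-positive libraries, so the groups did not overlap. The log2 fold change was -0.23 (SE 0.0648, 95% interval -0.36 to -0.093, edgeR adjusted p = 0.0118). This was the smallest of the 4 falls, and it missed the threshold without DOX-negative replicate 1 (adjusted p = 0.0654) and without DOX-positive replicate 1 (adjusted p = 0.0621).
ABCC5 (MRP5, chr3:183919934-184017884) had 71.5, 77.72 and 65.38 CPM without DOX and 76.69, 65.57 and 79.82 CPM with DOX. The groups overlapped, and the log2 fold change was 0.048 (95% interval -0.13 to 0.22, edgeR adjusted p = 0.721).

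ABCC10 (MRP7, chr6:43427541-43451994) exports a range of hydrophobic drugs that includes the taxanes. It had 21.01, 22.74 and 24.31 CPM in the DOX-negative libraries and 26.83, 26.99 and 25.93 CPM in the DOX-positive libraries. All DOX-positive values were above all DOX-negative values, and the log2 fold change was 0.23 (95% interval 0.030 to 0.43). The unadjusted p was 0.0257 and the adjusted p was 0.0812 by edgeR, so the difference did not pass the threshold. A gene on the opposite strand, DLK2, shares 79 of the 8083 annotated exon bases of ABCC10, and it had at most 5 counts in a library.

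ABCG2 (BCRP, chr4:88090264-88231626) works as a dimer and exports topoisomerase inhibitors, urate and porphyrins. It was the lowest of the 10 by TPM and had 10.62, 10.83 and 10.89 CPM in the DOX-negative libraries and 7.229, 6.891 and 5.845 CPM in the DOX-positive libraries. The groups did not overlap. The log2 fold change was -0.69 (SE 0.140, 95% interval -0.98 to -0.39, edgeR adjusted p = 0.000867), and its share of the summed TPM went from 2.30 ± 0.111% to 1.48 ± 0.146%.

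ABCB6 and ABCB10 also work as dimers and are linked to heme. ABCB6 (chr2:219209772-219218958) has been described in the outer mitochondrial membrane and in endosomal and plasma membranes, where it carries porphyrins, and ABCB10 (chr1:229516582-229558707) lies in the inner mitochondrial membrane and supports early heme synthesis. ABCB6 had 174, 201 and 194 counts without DOX and 133, 79 and 96 counts with DOX, or 9.571, 10.27 and 9.645 against 5.792, 4.124 and 6.45 CPM. Every DOX-positive library was below every DOX-negative one, with replicate 2 the lowest. The log2 fold change was -0.86 (SE 0.164, 95% interval -1.20 to -0.52, edgeR adjusted p = 0.000449). In GENCODE 29, AC068946.2 shares 2864 of the 5234 exon bases of ABCB6 (54.7%) on the same strand. AC068946.2 has no entry under that name among the genes counted, and how reads in those bases were assigned is not known.
ABCB10 had 36.85, 33.06 and 36.39 CPM without DOX and 38.93, 37.01 and 38.36 CPM with DOX. The groups did not overlap, but the log2 fold change was 0.11 (95% interval -0.070 to 0.28, edgeR adjusted p = 0.389). The annotation lists 3 processed pseudogenes of ABCB10, so its counts depend on how reads shared with them were assigned. The pseudogenes have no entry under their names among the genes counted.

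ABCA3 (chr16:2275881-2340728) carries phospholipids into lamellar bodies, the surfactant stores of the lung, and lies in lysosome-related membranes of other cells. Its level went from 38.91 ± 3.31 to 40.27 ± 5.16 CPM (SD, n = 3 each). The groups overlapped, and the log2 fold change was 0.056 (95% interval -0.15 to 0.26, edgeR adjusted p = 0.720).

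All 10 genes passed the filter on low counts. With edgeR, 4 of 10 passed the threshold, against 26.7% of the 14292 genes tested, and all 4 were lower, against 13.7% of all genes lower and 13.0% higher. Of the 10, 0 passed as higher by edgeR or DESeq2, and 1 of them (ABCC10) was higher at an unadjusted p under 0.05. The groups did not overlap for 6 of the 10, against 39.8% of all genes. The median log2 fold change was 0.051, against -0.0034 over all genes tested.

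**Figure D2:**
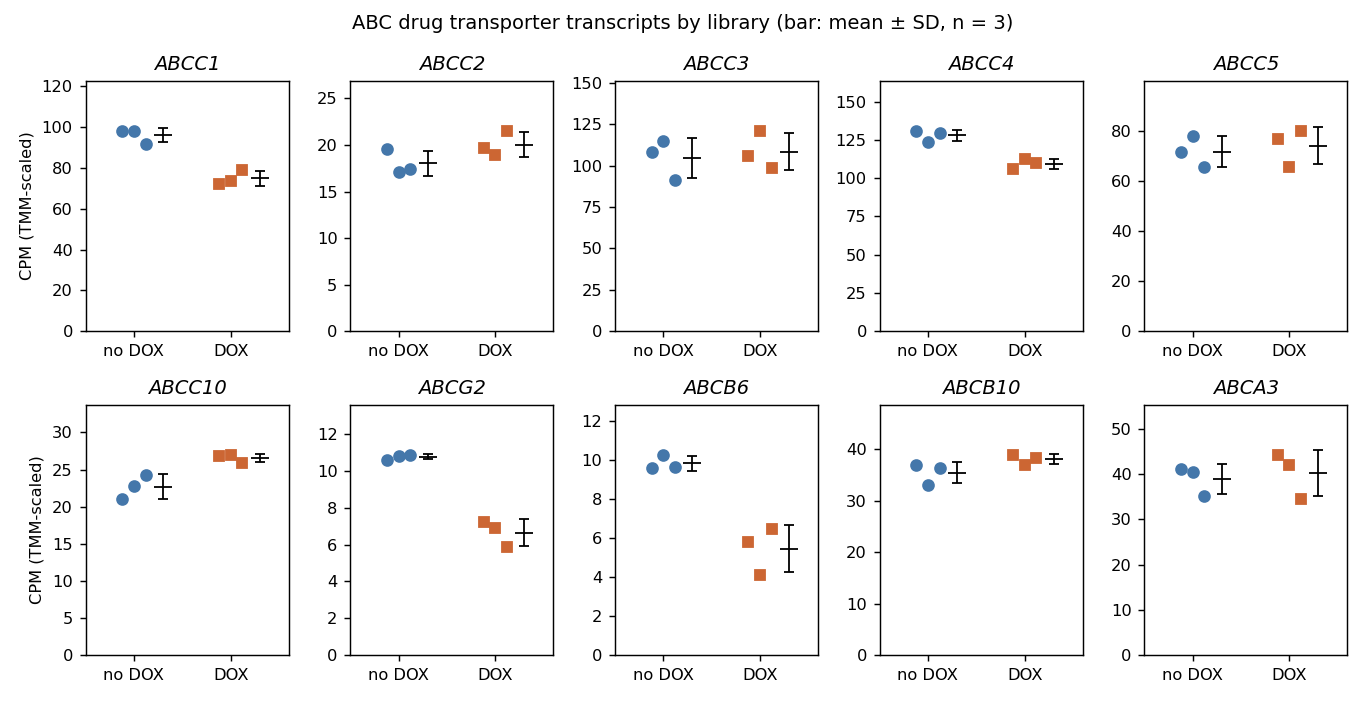
Level of each of the 10 genes in each library (CPM, with 1 point per library and lines at the means, n = 3 per group). ABCB6 falls from 9.829 ± 0.385 to 5.455 ± 1.20 CPM and ABCG2 from 10.78 ± 0.144 to 6.655 ± 0.721 CPM (mean ± SD), while the points of ABCC2, ABCC3, ABCC5 and ABCA3 overlap between groups.

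The 10 genes together went from 535.9 ± 21.0 CPM to 503.9 ± 4.35 CPM (SD, n = 3 each). The 4 that fell summed to 249, 243 and 242 CPM without DOX and to 191, 197 and 201 CPM with DOX. Of the summed TPM, ABCC4 went from 23.9 ± 1.30% to 21.3 ± 0.627%, and ABCB6 from 3.98 ± 0.163% to 2.31 ± 0.536%. The share of ABCC10, which did not pass the test, went from 4.79 ± 0.517% to 5.86 ± 0.0517%. Shares add up to a fixed total, so falls of some genes raise the shares of others.

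ABCB1 exceeded all of them. Its level went from 2604 ± 139 to 3480 ± 92.8 CPM (SD, n = 3 each), a rise in the count model (log2 fold change 0.42, SE 0.0655, edgeR adjusted p = 5.61e-05), though not on the unscaled TPM, where the value was 0.025 with either pseudocount. In the DOX-negative libraries ABCB1 held between 58.7% and 61.8% of the summed TPM of the 48 ABC genes listed, and the 10 genes held between 9.29% and 9.96%. In the DOX-positive libraries these shares were between 67.8% and 68.3% for ABCB1 and between 7.45% and 7.99% for the 10 genes. The TPM of ABCB1 was at most 6.52 times that of the 10 genes combined in a DOX-negative library and between 8.48 and 9.17 times in the DOX-positive libraries.
Among the 38 other ABC genes, 27 were tested and 6 passed (22.2%, against 26.7% of all genes tested). The median log2 fold change of the 27 was 0.027. Of the 6, 5 rose and 1 fell, where 13.0% of all genes passed as higher and 13.7% as lower. The 5 that rose were ABCB1, ABCA1, a cholesterol exporter (0.69, adjusted p = 4.57e-05), ABCB8, a mitochondrial transporter (0.48, adjusted p = 0.00408), ABCA7, a lipid transporter (0.36, adjusted p = 0.0219, but -0.040 and -0.035 on TPM), and ABCC9, a subunit of ATP-sensitive potassium channels (1.24, adjusted p = 0.00583, 16 to 45 counts per library). The 1 that fell was ABCD4, which takes part in lysosomal cobalamin export (-0.47, adjusted p = 0.00168). ABCA7 missed the threshold without DOX-negative replicate 3 (adjusted p = 0.125) or DOX-positive replicate 2 (adjusted p = 0.0623).

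**Figure D3:**
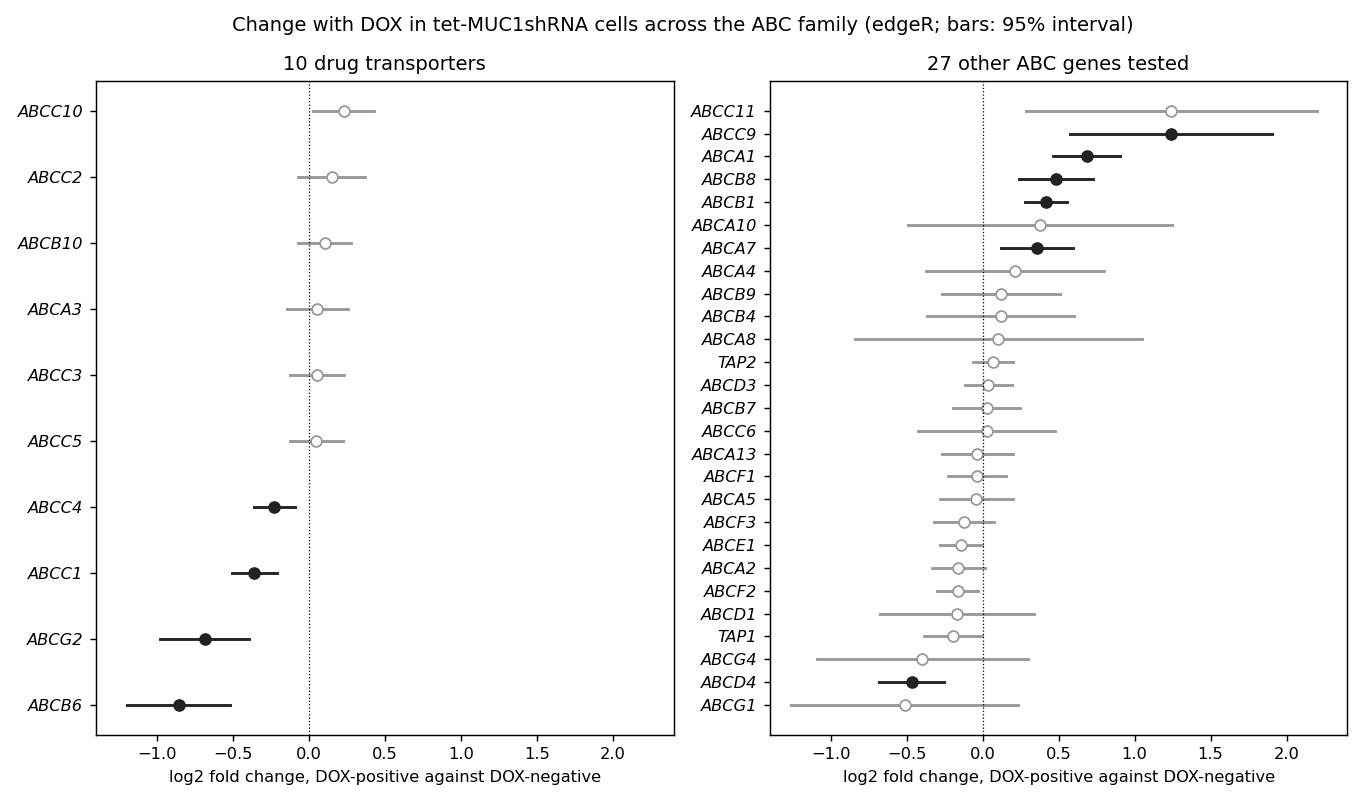
Log2 fold change (DOX-positive against DOX-negative, edgeR) of the ABC family genes that passed the filter, with 95% intervals as bars and filled points for an adjusted p under 0.05. ABCB6, ABCG2, ABCC1 and ABCC4 lie below 0 with intervals that do not cross it, and ABCB1 lies at 0.42.

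Genes of the pathways that supply the transporters' substrates were counted in the same fit, where 26.7% of all genes passed. Of the glutathione conjugation genes, 7 of 20 tested passed (35.0%), 6 lower and 1 higher, with a median log2 fold change of -0.14. Those lower included GSR, which regenerates reduced glutathione (log2 fold change -0.48, adjusted p = 4.66e-06), and GSTP1, a glutathione transferase (-0.64, adjusted p = 1.23e-05), and the 1 higher was GSTO1 (0.44, adjusted p = 7.58e-05).
Of the cyclic nucleotide and prostaglandin genes, 9 of 20 passed (45.0%), 6 lower and 3 higher, with a median of -0.11. ADCY7, which makes cAMP, fell (-1.06, adjusted p = 2.78e-07), as did PDE4B, which degrades it (-0.80, adjusted p = 0.000164). PDE5A, which degrades cGMP, rose (1.45, adjusted p = 2.68e-08), and PTGS2, the inducible prostaglandin synthase, rose at low counts, 1 to 26 in a library (2.16, adjusted p = 0.00592).
Of the heme genes, 8 of 25 passed (32.0%), 5 higher and 3 lower, with a median of 0.036, and 4 or 5 passed without DOX-negative or DOX-positive replicate 1. SLC25A37, the mitochondrial iron importer (-0.51, adjusted p = 5.82e-06), and HMOX1, which degrades heme (-0.67, adjusted p = 0.00424, but 0.124 with DESeq2), fell. The value for HMOX1 was -0.41 without DOX-positive replicate 2, its lowest library (12.1 CPM, against 24.1 and 23.1 CPM in the other DOX-positive libraries). FECH, the last enzyme of heme synthesis, also fell (-0.29, adjusted p = 0.00478), and it is named after its value was seen. Other heme synthesis genes, ALAD (0.24, adjusted p = 0.0256) and UROD (0.27, adjusted p = 0.0191), rose. HMOX2 rose too (0.35, adjusted p = 0.0164), though its groups overlapped. ALAD, UROD and HMOX2 are also named after their values were seen. SLC25A39, which carries glutathione into mitochondria (0.27, adjusted p = 0.00867, but -0.13 on TPM), and HEBP1, a heme-binding protein (0.44, adjusted p = 0.0115), rose. The groups of HEBP1 overlapped too. SLC25A39 missed the threshold without DOX-positive replicate 1 (adjusted p = 0.0640), and HEBP1 missed it without DOX-negative replicate 1 or 2 or DOX-positive replicate 2 (adjusted p between 0.0567 and 0.0646). SLC25A37 and FECH are described partners of ABCB10, which did not pass the test.

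Of the genes for factors that regulate transporters, 9 of 22 tested passed (40.9%, against 26.7% of all genes tested). These were 5 higher and 4 lower, and the median log2 fold change of the 22 was 0.023. NFE2L2 was among those that fell (-0.29, adjusted p = 0.00196). KEAP1 fell as well (-0.37, adjusted p = 0.00318), and it is named after its value was seen. The activity of the factors was not tested. MYC rose (0.64, adjusted p = 1.02e-06), as did FOXO3 (0.62, adjusted p = 1.13e-06). AHR rose as well (0.47, adjusted p = 4.22e-05), and it is named after its value was seen, because its motif was searched.
Of the scaffold and turnover genes, which anchor or remove transporters at the membrane, 5 of 10 passed, 2 higher and 3 lower, with a median of -0.019. The ubiquitin ligase NEDD4L (0.65, adjusted p = 8.39e-08) and the actin linker EZR (0.40, adjusted p = 2.43e-05) rose, and the related linkers MSN (-0.26, adjusted p = 0.00290) and RDX (-0.26, adjusted p = 0.00457) fell. Adjusted p-values in these paragraphs are from edgeR over all genes tested.
Of the uptake and taxane metabolism genes, 3 of 6 tested passed, 1 higher and 2 lower, with a median of -0.041. SLCO1B3, an uptake carrier that accepts taxanes, went from 26.9 ± 0.782 to 38.6 ± 0.589 CPM (SD, n = 3 each, 0.52, edgeR adjusted p = 8.54e-05). SLCO2B1 (-2.20, adjusted p = 0.000178) and SLCO4A1 (-0.32, adjusted p = 0.0224), which carry organic anions, fell. SLCO2B1 fell at low counts, 6 to 47 in a library. SLCO4A1 missed the threshold without DOX-negative replicate 1 or DOX-positive replicate 2 or 3 (adjusted p between 0.0768 and 0.125). CYP3A4, the main docetaxel-metabolising enzyme, had at most 1 count in a library. CYP1B1, of the same list and named after its value was seen, had 909 to 1551 counts. It did not pass (0.014, adjusted p = 0.926).

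The 4 falls did not hold equally when the values were processed otherwise. With a fold of at least 2 also required, 0 of the 10 passed. In the other 16 alternatives, ABCB6 stayed past the threshold in 16, ABCC1 and ABCG2 in 14 and ABCC4 in 12. On the deposited TPM, where the median gene moved by -0.32 or -0.39 on the log2 scale depending on the pseudocount, the 6 genes that did not pass with counts had values below 0, and 0 of the 6 passed in limma.

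**Figure D4:**
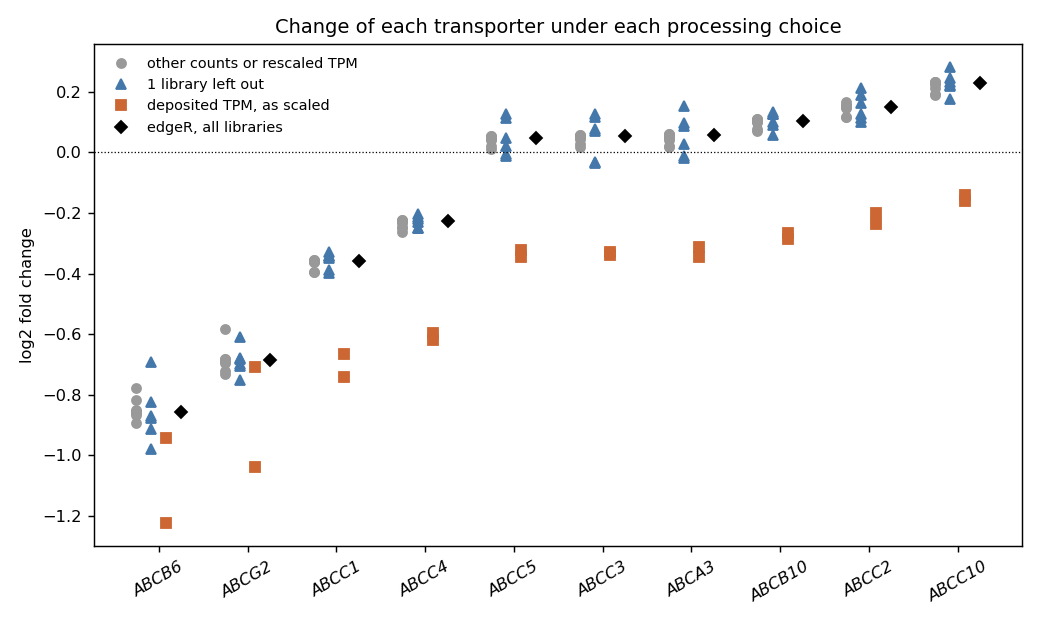
Log2 fold change of each of the 10 genes under the count model and its alternatives (1 point per setting). ABCB6 lies between -1.22 and -0.69 in every setting, and the 2 TPM settings put the 6 genes that did not pass, such as ABCC2 at -0.20 and -0.24, below 0.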

How the data were processed

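RNA-Seq libraries were prepared with TruSeq Stranded mRNA from total RNA of triplicate cultures, and samples were grouped by the DOX state in their titles. The authors deposited whole-number read counts per gene and a separate table of TPM values. The submitters' processing notes name STAR, DESeq2 and the build GRCh38 (hg38). Versions, the counting step, its strand setting, the annotation and the lengths behind TPM are not given in the sources used here.

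The count model was fitted with edgeR 4.0.16 (R 4.3.3): filterByExpr (14292 genes), TMM factors (0.986 to 1.03), and a two-sided quasi-likelihood test with the group as the only term. The threshold was a Benjamini-Hochberg adjusted p under 0.05 over all genes tested. The SE was taken from the log2 fold change and the F statistic. Replicates are separate cultures of 1 line, and counting floors of 3 counts cover counting error only.

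The 10 genes and all lists were chosen with earlier results of these data known. Named genes were the 10, MUC1, ABCB1, each other ABC gene past the threshold and, in each other list, the 2 genes with the smallest adjusted p in each direction. Alternatives were thinning to the smallest total, a replicate block, RLE factors or total counts for scaling, all genes or those with 10 or more counts per library, DESeq2 1.42.0, limma 3.58.1 on log2(TPM + 1), log2(TPM + 0.1) and TPM rescaled without the 5 noncoding RNAs, a fold of at least 2, and each library left out. Counts per base of principal transcripts were added after the data were seen. TPM fold changes include the pseudocount, which understates changes of low genes. Protein sequences were not used here, and some genes that the rule names are not reported here. Same-numbered libraries did not deviate together, with correlations of -0.0457, -0.123 and -0.0318.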

Additional observations from a re-analysis of the deposited data

How the results depend on the processing

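With limma on log2(TPM + 1), on log2(TPM + 0.1) and with a fold of at least 2, in that order, 443, 408 and 368 of all genes passed, against 3816, and 1, 1 and 0 of the 10 transporters, against 4. The counts in the same order were 0, 0 and 1 for other ABC genes, 3, 2 and 1 for glutathione conjugation, 2, 1 and 4 for cyclic nucleotides and prostaglandins (5 on rescaled TPM), 1, 1 and 0 for heme, 1, 2 and 0 for regulators, 0, 0 and 0 for scaffolds, and 1, 1 and 1 for uptake. Of the genes that passed, 6.77% and 7.11% were higher on the TPM scales, against 48.8% with counts. The 2 most abundant transporters held 47.3% of the summed TPM and 42.2% by principal transcript length.

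Values below 0 on log2(TPM + 1) and log2(TPM + 0.1), for genes above 0 with counts, were -0.20 and -0.24 for ABCC2, -0.33 and -0.34 for ABCC3, -0.32 and -0.34 for ABCC5, -0.14 and -0.16 for ABCC10, -0.27 and -0.29 for ABCB10, and -0.31 and -0.34 for ABCA3. ABCA7 (-0.040 and -0.035) and SLC25A39 (-0.13 and -0.13) also lay below 0. Less the median shift of all genes, the 6 transporters were above 0, except ABCC3 (-0.0081) and ABCC5 (-0.0015) on log2(TPM + 1). ABCC1 (adjusted p = 0.227 and 0.205), ABCC4 (0.238 and 0.238), ABCG2 (0.0609 and 0.0981) and ABCB1 (0.956 and 0.955) missed the threshold in limma on these scales. Of 34 other named genes followed through the alternatives, 28 lost their call on either TPM scale, 4 without a library and 3 otherwise.

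With each library left out, between 3 and 4 of the 10 passed and between 2784 and 3645 of all genes. Heme genes ranged from 4 (without DOX-negative replicate 1) to 7, with 5 without DOX-positive replicate 1. Leaving out a library put ABCC3 between -0.037 (DOX-negative 3) and 0.13, with -0.032 without DOX-positive 2. ABCC5 lay between -0.012 (DOX-negative 3) and 0.13, with -0.0068 without DOX-positive 3, and ABCA3 between -0.019 (DOX-positive 1) and 0.15, with -0.013 without DOX-negative 3. With the replicate block, 3158 genes and 4 of the 10 passed. The cause of these shifts was not tested. ABCB6 and ABCG2 had at most 219 counts per library, which limits their precision.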

Other observations

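Genes of the UGT and SULT families, which include the enzymes that make glucuronide and sulfate conjugates, were mostly at or near 0 counts. Of 18 such genes, 12 were at 0 counts in every library, 16 did not pass the filter on low counts, and 0 of the 2 tested passed the threshold. Of all 28008 genes, 7566 were at 0 counts in every library and 13716 did not pass the filter. Among all genes tested, 26.7% passed the threshold with edgeR. The counting step is not given, so how reads shared between similar genes of these families were assigned is not known. For both edgeR and DESeq2 the number of the 2 tested genes past the threshold was 0, and 0 had an unadjusted p under 0.05. The 2, named after their values were seen, were UGT8, a family member that makes galactosylceramide (40.7 ± 3.55 and 40.6 ± 3.31 CPM, SD, n = 3 each), and SULT1A1, a phenol sulfotransferase (6.72 ± 1.05 and 7.20 ± 0.465 CPM).

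Genes of the lamellar bodies in which ABCA3 works in lung were partly expressed. Of 10, 6 were tested and 0 passed with edgeR or DESeq2, and 0 had an unadjusted p under 0.05. Among all genes tested, 26.7% passed with edgeR. NKX2-1, the factor that drives surfactant genes in lung, is named after its value was seen. Its level was 111.7 ± 4.67 CPM without and 107.4 ± 13.1 CPM with DOX (SD, n = 3 each).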
